A study of Mus musculus with 8 samples.

Results

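Within the Tri-PyMT libraries labelled GFP+, a minority of cells carried 3 or more counts of epithelial keratin and adhesion molecule transcripts. These cells are compared here with cells of the same libraries in which none was counted. Tri-PyMT cells come from a breast tumour of a mouse that carries 3 transgenes, MMTV-PyMT, Fsp1-cre and Rosa26mT/mG, and both the GFP+ and the RFP+ population derive from that background. Cells were grown in culture, sorted by fluorescence and profiled by Drop-seq, a method that captures polyadenylated RNA of single cells on barcoded beads. GFP+ libraries 1 and 2 and RFP+ libraries 2 and 3, each sequenced on 2 lanes, hold 7400 cells. The labels do not tell whether different cultures stand behind the libraries, and the p-values below cover no more than library-to-library variation, which may be technical.

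Cells with 1000 or more counts were divided by the summed counts of 9 epithelial genes, Krt7, Krt8, Krt18, Krt19, Epcam, Cdh1, Cldn3, Cldn4 and Cldn7. Cells with 3 or more such counts are called cells with epithelial counts, and cells with 0 are called cells without. GFP+ libraries gave 560 cells with and 961 cells without epithelial counts among 2652 cells of that depth, and 1131 cells with 1 to 2 counts lay between. In GFP+ library 1 the numbers were 315 with and 515 without among 1419 cells, and in GFP+ library 2 they were 245 with and 446 without among 1233 cells.

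Keratins 7, 8, 18 and 19 form the intermediate filaments of simple epithelia, and Epcam, E-cadherin (Cdh1) and the claudins hold epithelial cells to their neighbours. In epithelial-mesenchymal transition, carcinoma cells lower these genes and raise mesenchymal ones such as vimentin (Vim), and cells with transcripts of both kinds are often described as hybrid states. In the mouse used here the Fsp1 promoter, that of S100a4, drives the Cre recombinase, and the Rosa26mT/mG reporter turns from red to green for good in a cell where Cre has acted, so green fluorescence records past as well as present promoter activity.

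The reporter rows of the table went against the labels. In the libraries labelled GFP+ the CUSTOM_RFP row stood at 3042 and 3024 CPM (counts per library scaled to an equal total) in cells with and at 2931 and 3047 CPM in cells without epithelial counts, while CUSTOM_GFP stood at 111 and 117 against 83.2 and 97.7 CPM. In the libraries labelled RFP+ a CUSTOM_GFP count was found in 42.9% and 44.0% of cells with epithelial counts, each cell thinned to 1000 counts, and a CUSTOM_RFP count in 12.7% and 11.6%. The names GFP+ and RFP+ are used below as the labels give them.

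The share of cells with epithelial counts was 22.2% (exact 95% interval 20.1 to 24.5%) in GFP+ library 1 and 19.9% (17.7 to 22.2%) in GFP+ library 2, and 58.0% and 60.6% in RFP+ libraries 2 and 3. Cells without made up 36.3% and 36.2% in GFP+ libraries and 10.3% and 9.21% in RFP+ libraries. With every cell thinned to 1000 counts, cells with 3 or more such counts made up 10.7% and 9.65% of GFP+ cells. These intervals cover counting error only. The population shares are a description, since the counts that define them are the ones compared.

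Depth moved with the division. Median counts per cell were 1791 and 1725 in GFP+ cells with epithelial counts, against 1310 and 1303 in cells without, and the deepest 5% of cells of each library held 14.9% and 16.7% of the cells with epithelial counts, against 2.52% and 4.26% of the cells without. Thinned to 1000 counts, both classes showed a like number of genes, with medians of 705 and 700 in cells with epithelial counts and 698 and 694 in cells without. Mitochondrially encoded transcripts took 0.338% and 0.311% of counts in cells with, against 0.373% and 0.302% in cells without. A count of 0 in a shallow cell does not show that the gene was silent. The numbers of genes called were therefore also read after thinning and after matching on depth. Most folds printed below are from the full counts alone.

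**Figure D1:**
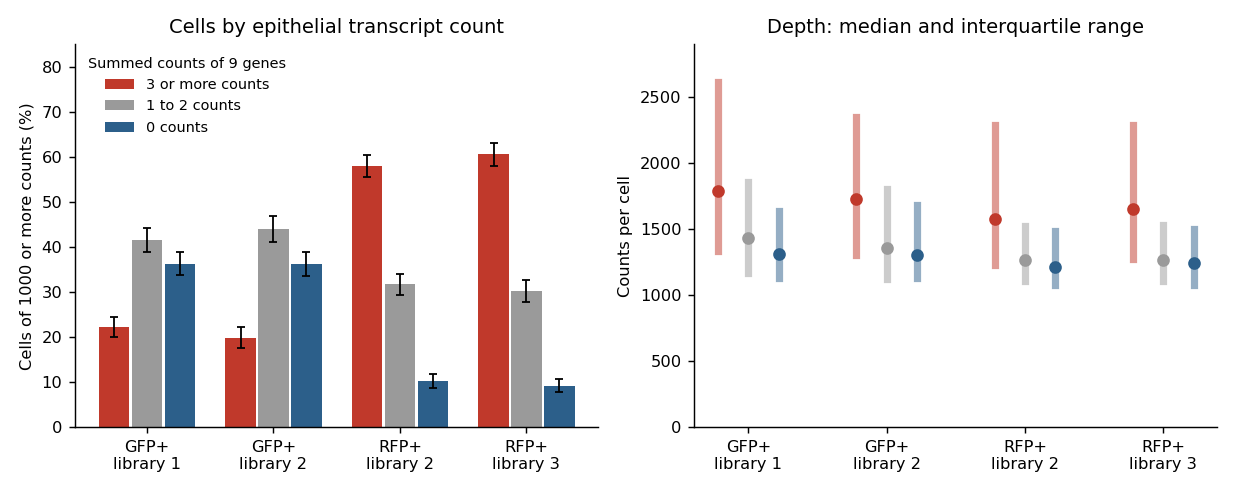
Left, the share of cells of 1000 or more counts (%) with 3 or more, 1 to 2 and 0 summed counts of the 9 epithelial genes in each library, with exact 95% binomial intervals as bars. Right, counts per cell in the same classes, with the median as a point and the interquartile range as a bar. GFP+ libraries have 22.2% and 19.9% of cells in the highest class, and in every library that class is the deepest.

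The genes that made the division are described without a test. Among GFP+ cells with epithelial counts, Krt18 was the most abundant at 775 and 839 CPM in libraries 1 and 2, followed by Epcam at 549 and 557 CPM, Krt8 at 429 and 367 CPM and Krt7 at 320 and 272 CPM. E-cadherin was far rarer, with Cdh1 at 51.1 and 55.3 CPM, Krt19 at 40.9 and 45.4 CPM and Cldn3 at 26.3 and 27.6 CPM. Cldn4 and Cldn7 rested on 3 to 7 counts a library. CPM is not corrected for transcript length, so this order is one of counts and not of molecules per length. Most of these cells had more than one of the genes: 38.1% and 44.1% had 2 of them, 36.2% and 30.6% had 3, 19.4% and 17.96% had 4 or more, and 6.35% and 7.35% had a single gene. Just inside the threshold lay 135 and 110 cells with 3 counts, and just outside it 226 and 208 cells with 2 counts.

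Promoters of 5 of the genes described here are shown because repressors of the epithelial state, the Zeb and Snai factors, are known to bind E-boxes of the form CAGGTG, whose reverse complement is CACCTG. The windows run from 250 bases before to 50 bases after the start of the gene in RefSeq (GRCm38.p6), read 5′ to 3′ on the gene's strand. Both forms were searched, they cannot overlap one another, and each match is in capitals. Epcam lies at chr17:87635729-87636028 (plus strand), Wfdc2 at chr2:164562465-164562764 (plus), Lsr at chr7:30973420-30973719 (minus), Spint2 at chr7:29281928-29282227 (minus) and S100a4 at chr3:90603520-90603819 (plus).
Epcam: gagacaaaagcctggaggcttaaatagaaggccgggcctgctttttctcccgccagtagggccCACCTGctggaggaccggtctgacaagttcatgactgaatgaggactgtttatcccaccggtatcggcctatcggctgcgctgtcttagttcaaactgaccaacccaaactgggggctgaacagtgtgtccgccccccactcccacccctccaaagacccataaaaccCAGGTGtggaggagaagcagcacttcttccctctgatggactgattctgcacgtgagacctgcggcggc
Wfdc2: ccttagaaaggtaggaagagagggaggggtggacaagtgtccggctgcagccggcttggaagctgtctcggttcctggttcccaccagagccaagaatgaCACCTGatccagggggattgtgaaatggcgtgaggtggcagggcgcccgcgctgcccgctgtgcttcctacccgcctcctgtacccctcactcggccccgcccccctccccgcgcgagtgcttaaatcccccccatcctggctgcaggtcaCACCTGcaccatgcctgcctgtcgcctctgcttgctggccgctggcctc
Lsr: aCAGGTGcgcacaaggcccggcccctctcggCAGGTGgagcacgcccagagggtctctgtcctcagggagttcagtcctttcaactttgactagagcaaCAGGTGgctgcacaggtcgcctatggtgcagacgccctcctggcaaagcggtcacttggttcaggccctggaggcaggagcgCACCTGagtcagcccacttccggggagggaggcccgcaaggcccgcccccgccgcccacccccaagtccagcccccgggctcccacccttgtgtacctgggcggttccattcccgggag
Spint2: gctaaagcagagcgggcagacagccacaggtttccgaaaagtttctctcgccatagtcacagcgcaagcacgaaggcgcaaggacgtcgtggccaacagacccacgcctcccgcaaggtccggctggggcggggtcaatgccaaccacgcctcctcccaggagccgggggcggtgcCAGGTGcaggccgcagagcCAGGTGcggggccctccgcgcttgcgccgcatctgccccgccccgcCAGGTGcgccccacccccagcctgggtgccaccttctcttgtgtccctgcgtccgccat
S100a4: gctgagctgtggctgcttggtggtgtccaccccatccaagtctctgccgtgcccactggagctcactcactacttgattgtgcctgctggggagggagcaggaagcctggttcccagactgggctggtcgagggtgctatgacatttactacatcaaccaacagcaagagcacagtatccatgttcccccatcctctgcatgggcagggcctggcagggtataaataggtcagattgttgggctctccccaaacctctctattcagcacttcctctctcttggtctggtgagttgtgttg
The windows of Epcam and Wfdc2 held 2 matches each, Spint2 held 3, Lsr held 4 and S100a4 held none. These 5 do not stand for the rest: those of Lad1, Fermt1 and Krt14, called higher below, held none, and those of Sparc and Timp2, called lower, held 1 each. Of the windows given, 19 of 36 genes called higher and 9 of 46 called lower held a match. Windows were thus given for under 80% of the 52 genes called higher and of the 59 called lower, so a comparison of motif shares between those sets is void. Of all 27025 genes with a RefSeq window, 22.6% held at least 1 match. A window was given for 7 of the 9 genes of the division, and each of Krt7, Krt8, Krt18, Epcam, Cldn3, Cldn4 and Cldn7 held a match in at least 1 of its windows. A Grainyhead core, AACC followed directly by GGTT, was in 0.174% of all genes' windows and in none of those of the genes of the division or of the called genes. A match is letters in a window, and binding was not measured.

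Epcam was read in classes made by the keratins, and the keratins in classes made by the adhesion genes. When the 4 keratins alone made the classes, Epcam, a surface adhesion molecule that the division then did not use, was at 420 and 367 CPM in cells with keratin counts, against 129 and 148 CPM in cells without. That is a log2 fold of 1.52 ± 0.13 (SE, edgeR quasi-likelihood test, adjusted p = 9.51e-28), among 50 of 5585 tested genes called higher (0.895%). Cells with keratin counts were deeper, with median counts of 1968 and 2016 against 1318 and 1295 in cells without. The Epcam fold is from the full counts, without a correction for this. Cdh1 was at 33.9 and 29.8 CPM against 23.98 and 20.4 CPM, a log2 fold of 0.51 ± 0.38 with edgeR's adjusted p = 0.692, so no difference was detectable at this depth. Cldn3, Cldn4 and Cldn7 were too rare to test, Cldn3 with 13 and 9 counts in cells with keratin counts and 4 and 3 counts in cells without. In RFP+ libraries Epcam was at 420 and 445 CPM with and at 232 and 235 CPM without keratin counts (log2 0.87 ± 0.13), among 0.34% of genes called higher, but not called by DESeq2 (adjusted p = 0.286).

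In the reverse reading the adhesion genes alone made the classes, with 2 or more counts against 0. Krt7 was at 244 and 197 CPM in cells with adhesion-gene counts, against 85.6 and 68.3 CPM in cells without (log2 1.5 ± 0.17, edgeR adjusted p = 8.95e-07). Krt8 differed by 1.21 ± 0.13 and Krt18 by 0.94 ± 0.09 on the log2 scale, and in both libraries the cells with adhesion-gene counts were above the cells without. Krt19 had a log2 fold of 1.54 ± 0.38 on 9 to 22 counts a sum (edgeR adjusted p = 0.0391), and DESeq2 did not call it (adjusted p = 0.85). Of 5603 genes, 39 were called higher in this reading (0.696%), and 0.714% in RFP+ libraries, where Krt7 had a log2 fold of 0.86 ± 0.09. Thinned to 1000 counts with classes made anew, the folds of Krt7, Krt8 and Krt18 were 1.04, 1.03 and 0.63 and none of them passed the threshold.

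Across the genes not used for the division, GFP+ cells with epithelial counts had more transcripts of Wfdc2, Ly6a, Lad1, Mpzl2 and other genes, and fewer of S100a4, Vim, Sparc and other genes. Of 5574 genes tested, 52 were higher (0.933%) and 59 lower (1.06%), together 1.99%, at an adjusted p under 0.05, here named called. Among the genes called, the rises were larger and in rarer genes: 44 were of 1.5-fold or more and 31 of 2-fold or more, against 33 and 12 of the falls. The median level was 59.7 CPM for the genes called higher and 145 CPM for those called lower. A rarer gene passes the threshold only at a larger fold, so size and level are not separate results. At an unadjusted p under 0.05 there were 644 genes, or 11.6%. Of the genes called, 15 of the 52 higher and 4 of the 59 lower had a mean under the 20 CPM of the filter in the class where they were lower, and thus were tested only through the other class.

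Several of the genes called higher encode secreted or surface-anchored proteins. Wfdc2, a secreted protein of the whey acidic protein family, was at 781 and 778 CPM in cells with, against 338 and 293 CPM in cells without epithelial counts (log2 1.28 ± 0.09, edgeR adjusted p = 2.03e-44). Ly6a, which encodes the surface antigen Sca-1, was at 401 and 410 against 156 and 110 CPM (log2 1.57 ± 0.13), and its relative Ly6e was at 835 and 873 against 540 and 465 CPM (log2 0.74 ± 0.08). The classes were apart in both libraries for all 3, as a description of genes called from these sums. Reads of the Ly6 family may be shared between near-identical members, so the split between them is uncertain. Thinned to 1000 counts, 46.0% and 46.5% of cells with epithelial counts had a Wfdc2 count, against 26.02% and 24.9% of cells without, so more cells held a count as well as the summed level being higher.

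Several genes of junctions and adhesion were among those called higher. Mpzl2, an adhesion molecule of the immunoglobulin family found in epithelia, was at 114 and 94.98 CPM in cells with epithelial counts, against 33.3 and 34.0 CPM in cells without (log2 1.63 ± 0.24). Lad1, a ladinin of epithelial anchorage structures, was at 173 and 172 against 72.9 and 62.2 CPM (log2 1.33 ± 0.18). Perp, a desmosomal membrane protein and p53 target, was at 367 and 325 against 238 and 200 CPM (log2 0.64 ± 0.12). Lsr, a component of tricellular tight junctions whose promoter is shown above, was at 54.1 and 87.1 against 30.7 and 10.4 CPM (log2 1.67 ± 0.30). Desmoplakin (Dsp) was at 79.0 and 55.4 against 25.6 and 23.7 CPM (log2 1.45 ± 0.29). For these 5 genes the lowest value in cells with epithelial counts was above the highest in cells without. They were called from these same values, so the separation is a description and no further support. All 111 called genes had the same sign in both GFP+ libraries, so this order does not set the 5 apart.

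Among the 15 genes tested only through the cells with epithelial counts were Fermt1, Kcnk1 and Serpinb5, picked out after their values were seen and given as a description. Fermt1 encodes kindlin-1, an integrin activator of epithelial cells. It had 26 and 22 counts in cells with epithelial counts, against 4 and 2 counts in cells without, or 38.04 and 43.5 against 5.12 and 2.96 CPM. The fitted log2 fold was 3.24 ± 0.49, and with so few counts in the cells without it depends on the prior count of the fit. Kcnk1, a potassium channel, and Serpinb5, the epithelial serpin maspin, had log2 folds of 2.13 ± 0.32 and 2.05 ± 0.31. Krt14, a keratin of basal epithelial cells that was not among the dividing genes, was at 76.1 and 67.3 CPM against 24.3 and 28.1 CPM (log2 1.45 ± 0.28, edgeR adjusted p = 4.00e-05), while its partner Krt5 had 0 counts in all 4 sums.

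The rest of the 15 largest rises among genes of 100 CPM or more had log2 folds of 0.57 to 1.03. They were Wnt10a, a Wnt ligand, at 135 and 83.1 against 60.1 and 45.9 CPM, and Tuba4a, Prrg4, Dynap, Fam3c, Crip2, Strbp, Cystm1 and Syngr2. In each of them, as in every gene called higher, both GFP+ libraries had the higher level in the cells with epithelial counts. Cxcl16, a membrane-bound chemokine of lower level, was at 65.8 and 49.5 against 17.9 and 22.2 CPM (log2 1.53 ± 0.31).

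**Figure D2:**
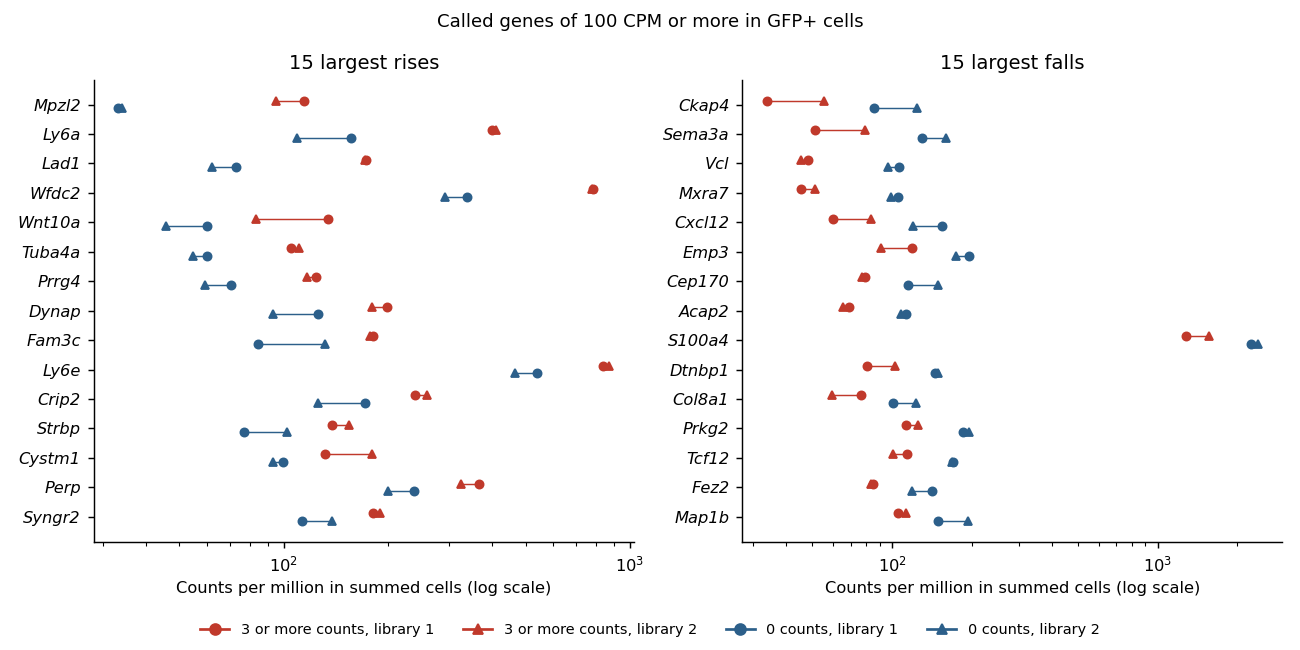
CPM (log axis) of the 15 largest called rises (left) and falls (right) among genes of 100 CPM or more, in GFP+ cells with 3 or more epithelial counts (red) and with 0 (blue). Circles are library 1 and triangles library 2, joined by a line within a class. The genes shown were called from these same values, and Wfdc2 is at 781 and 778 CPM against 338 and 293 CPM.

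Several mesenchymal genes were among those called lower. S100a4, the calcium-binding protein whose promoter drives Cre in these mice, was at 1276 and 1569 CPM in cells with epithelial counts, against 2245 and 2388 CPM in cells without (log2 -0.73 ± 0.05, edgeR adjusted p = 8.68e-38). Vim was at 2382 and 2750 against 3638 and 3693 CPM (log2 -0.53 ± 0.04), and Sparc, a secreted matrix glycoprotein, at 528 and 592 against 851 and 850 CPM (log2 -0.62 ± 0.08). Both libraries gave the same order for all 3 genes, as they did for all 111 called genes, and the classes of the 3 did not overlap. The 3 were called from these same values, so the separation is a description and no further support. Thinned to 1000 counts, 65.4% and 71.4% of cells with epithelial counts had an S100a4 count, against 81.4% and 85.9% of cells without, so an S100a4 count was found in most cells with epithelial counts. No cell type that lacks S100a4 was measured, so a background share from free RNA cannot be set beside these.

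The largest falls at 100 CPM or more were those of Ckap4, a membrane protein of the endoplasmic reticulum (33.6 and 55.4 against 85.7 and 124 CPM, log2 -1.26 ± 0.24), and Sema3a, a secreted guidance cue (51.2 and 79.2 against 129 and 160 CPM, log2 -1.18 ± 0.20). Vinculin (Vcl), which links adhesion sites to actin, was at 48.3 and 45.5 against 106 and 96.2 CPM (log2 -1.12 ± 0.23). Cxcl12, a stromal chemokine, was at 60.0 and 83.1 against 154 and 120 CPM (log2 -0.99 ± 0.20). The remaining falls of this group, Mxra7, Emp3, Cep170, Acap2, Dtnbp1, Col8a1, Prkg2, Tcf12, Fez2 and Map1b, had log2 folds of -1.10 to -0.64. Abundant genes fell by less: the actin-binding tropomyosin Tpm1 by 0.23 and caldesmon (Cald1) by 0.21, the protease inhibitor Timp2 by 0.28 and the ferritin chain Fth1 by 0.36 on the log2 scale. Fth1 has near-identical pseudogenes, so its count is uncertain. These 4 were named after their values were seen.

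Gene lists were read by how many of their tested members were called, beside the 0.933% higher and 1.06% lower and the median log2 fold of 0.0013 over all tested genes. Members that entered the test only through the class where they were higher were not set apart, so the counts of calls are a description. Of 11 tested genes of the epithelial surface, protease and splicing list, 6 were called higher, none lower, and all 11 had folds above 0 with a median of 0.37. Among them were the matriptase gene St14 (log2 1.8) and its inhibitor Spint2 (1.71), the splicing regulator Esrp1 (1.52), the trafficking GTPase Rab25 (1.43) and the galectin Lgals3 (0.37). In the epithelial junction list 3 of 15 were higher, Lsr, Dsp and Perp, with a list median of 0.27. F11r, the junctional adhesion molecule A, had 60.0 and 63.3 against 24.3 and 44.4 CPM and missed the threshold (edgeR adjusted p = 0.0619). Of 9 luminal secretory genes, Wfdc2 and Cystm1 were higher. None of 10 epithelial transcription factors was called, with folds of -0.20 to 0.13, and Grhl2 was too rare to test.

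The mesenchymal list had 7 of 27 tested genes lower, none higher, and a median of -0.23. The called members were Vim, S100a4, Sparc, Fbln2, Cald1, Tpm1 and Emp3. Fibronectin (Fn1) was at 114 and 94.98 against 139 and 132 CPM and N-cadherin (Cdh2) at 121 and 98.9 against 116 and 150 CPM, and neither was called. Among 13 transcription factors of the transition none was called. Zeb1, a repressor of Cdh1, was at 11.7 and 21.8 against 21.8 and 45.9 CPM (log2 -1.01 ± 0.39, edgeR adjusted p = 0.202), and Zeb2 at 21.9 and 25.7 against 41.0 and 47.4 CPM (log2 -0.90 ± 0.33, edgeR adjusted p = 0.164). At such levels a difference of this size was not detectable after adjustment, and Snai1 was too rare to test.

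In the other lists the calls were these. Of 39 actin and contractility genes 4 were lower, Actb, Tpm1, Vcl and Tmsb4x. Of 55 G2/M genes 2 were lower, the proliferation marker Mki67 (484 and 441 against 627 and 565 CPM, log2 -0.38 ± 0.09) and Top2a (log2 -0.26 ± 0.07), with a list median of -0.09, while none of 50 G1/S genes was called. Of 6 tested chemokines and cytokines, Cxcl12 and osteopontin (Spp1) were lower and Cxcl16 higher. Nothing is read from 2 calls in 55 genes, or from a single call in a list, beside the share over all genes. Single calls came from Nhp2 in 94 ribosome biogenesis genes, Ly6e in 13 interferon genes, Psmb10, a lower immunoproteasome subunit, in 12 class I presentation genes, Hspb1 in 21 immediate early and heat shock genes and Perp in 10 p53 targets. No member was called among 75 nuclear genes of oxidative phosphorylation, 82 cytosolic ribosomal proteins, 8 mitochondrially encoded genes, 19 glycolysis and hypoxia genes, 16 cholesterol synthesis genes, 26 stress-response genes, 15 TGF-beta targets and 7 integrin and basement membrane genes.

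Markers of other cell types were close to absent. Immune markers summed to 23.4 and 29.7 CPM in cells with, against 16.6 and 26.6 CPM in cells without epithelial counts, and 6 of the 9 in the table, Ptprc, Lyz2, Csf1r, Tyrobp and Fcer1g among them, were at 0. Endothelial markers summed to 1.46 and 9.89 against 5.12 and 2.96 CPM, with 3 of 7 at 0, and the erythroid marker Alas2 was at 0. Fibroblast markers summed to 39.5 and 63.3 against 79.3 and 91.8 CPM, most of it Col1a2, which had 14 and 18 against 34 and 40 counts (log2 -0.90 ± 0.31, edgeR adjusted p = 0.124), while Col1a1 had 1 count in all.

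**Figure D3:**
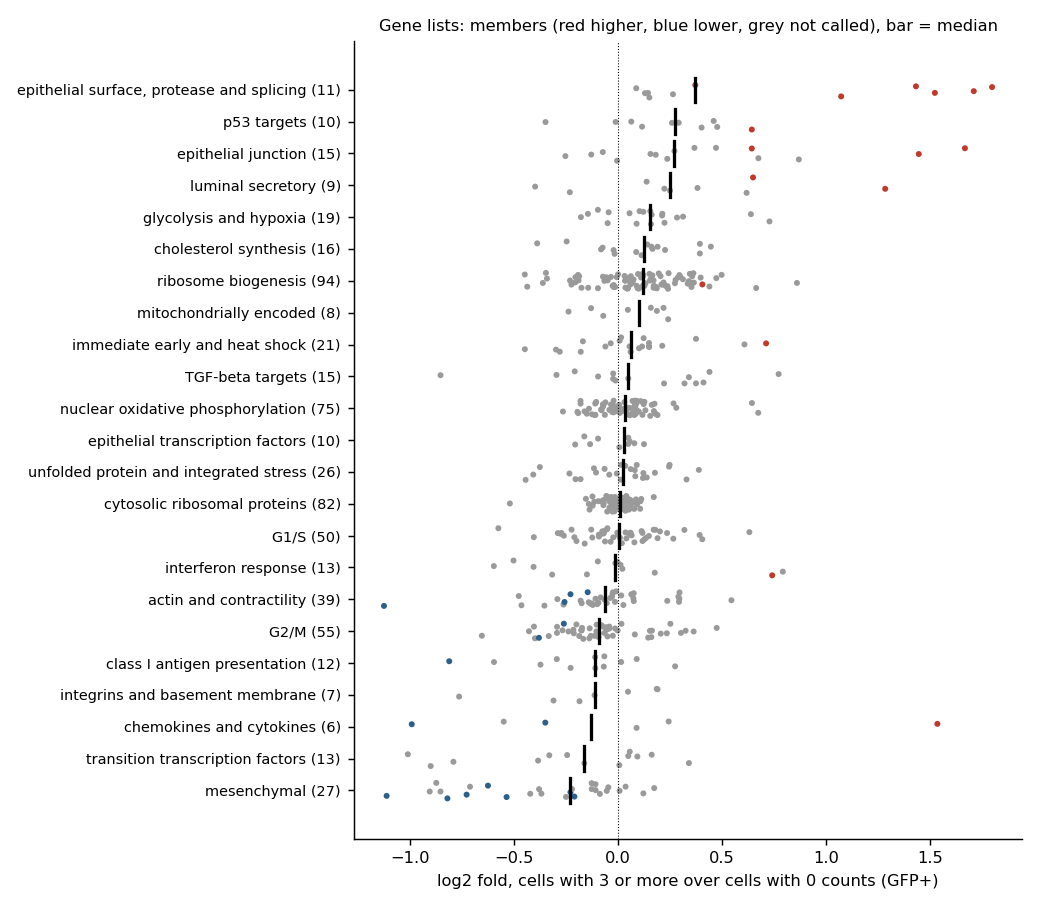
Log2 folds of GFP+ cells with 3 or more over cells with 0 epithelial counts for each tested member of 23 gene lists, with the number tested in brackets. Points are genes (red called higher, blue called lower, grey not called) and the bar is the list median, which runs from 0.37 for the epithelial surface list to -0.23 for the mesenchymal list.

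The same genes were followed in finer steps of the dividing count. From cells with 0, through 1 to 2 and 3 to 5, to 6 or more epithelial counts, Wfdc2 stood at 338, 511, 589 and 1170 CPM in GFP+ library 1 and at 293, 450, 709 and 966 CPM in library 2. Ly6a stood at 156, 196, 322 and 561 CPM in library 1 and at 110, 213, 322 and 649 CPM in library 2. S100a4 ran the other way, with 2245, 1905, 1549 and 724 CPM in library 1 and 2388, 2159, 1704 and 1202 CPM in library 2. Vim stood at 3638, 3368, 2737 and 1665 CPM in library 1 and 3693, 3431, 2975 and 2139 CPM in library 2. These 4 genes were chosen for their difference between the end classes, so what the steps add is the middle: for each of the 4, cells with 1 to 2 counts lay between cells with 0 and cells with 3 to 5 in both libraries. Other called genes are not described by this. The highest step, of 80 and 51 cells, had a median depth of 2430 and 2452 counts. Thinned to 1000 counts, this step stood at 753 and 1220 CPM of S100a4, against 2235 and 2368 CPM in cells with 0. The steps were those of the full counts, and thinning fixed groups hardly moves their CPM, so this is no check on depth.

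**Figure D4:**
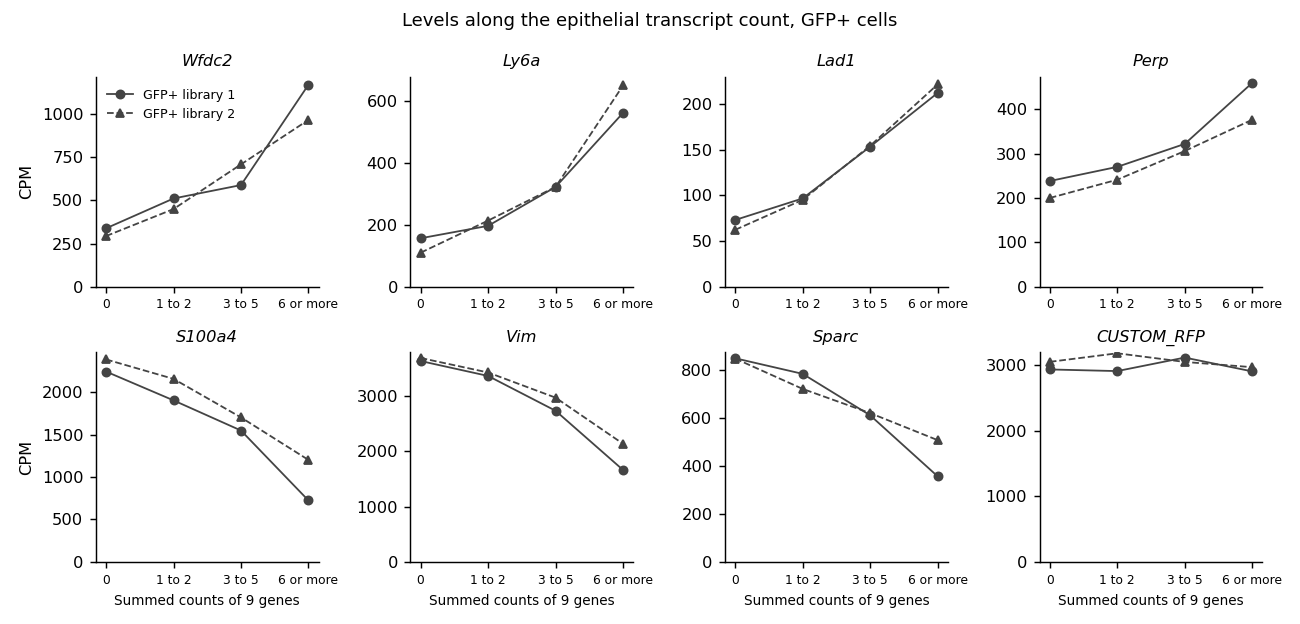
CPM of 8 transcripts in GFP+ cells grouped by summed epithelial counts (0, 1 to 2, 3 to 5, 6 or more), for library 1 (solid line, circles) and library 2 (dashed line, triangles). Wfdc2, Ly6a, Lad1 and Perp run upward, S100a4, Vim and Sparc downward, and CUSTOM_RFP stays between 2901 and 3177 CPM.

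How many genes were called depended on depth, on the test and on the library. With cells thinned to 1000 counts and classes made anew, 18 genes were higher and 18 lower. Of these, 17 and 13 were also called in the full counts. Among the genes called in the full counts, 50 of the 51 and 58 of the 58 still tested kept their sign. Thinned counts are drawn from the same cells, so a kept sign is no independent check. With classes matched on total counts, 33 were higher and 24 lower, and 29 and 24 of them were also called in the full counts. DESeq2's Wald test called 9 genes (0.161%), with 83 at an unadjusted p under 0.05: Wfdc2, Ly6a, Ly6e, Lad1 and Fermt1 higher and S100a4, Vim, Sparc and Fth1 lower. With a GFP+ library left out, the GFP+ folds rest on 1 library and the spread comes from the RFP+ libraries. These fits kept the genes of the full fit and are no replication within GFP+. Fermt1, Kcnk1 and Serpinb5 were tested only through the cells with epithelial counts. Their calls in these fits, and that of Fermt1 by DESeq2, are a description only. Without GFP+ library 1 there were 16 genes higher and 13 lower, and without GFP+ library 2 there were 21 and 20. Without either one in turn, 10 of the 52 genes were still called higher (Fermt1, Kcnk1, Lad1, Ly6a, Ly6e, Mpzl2, Perp, Serpinb5, Slc25a48 and Wfdc2) and 5 of the 59 lower (Fth1, S100a4, Sema3a, Sparc and Vim). The other 42 and 54 genes missed the threshold without one of the libraries at least, and with 2 libraries the spread is estimated mainly by sharing it across genes.

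Cells of mixed origin were not removed, and no doublet caller was run. A count of CUSTOM_GFP, the reporter row that is high in the libraries labelled RFP+, was found after thinning in 10.2% and 9.80% of GFP+ cells with epithelial counts, against 7.77% and 8.74% of cells without, and CUSTOM_GFP as a level had a log2 fold of 0.33 ± 0.19 (edgeR adjusted p = 0.518). CUSTOM_RFP had a log2 fold of 0.01 ± 0.05 (edgeR adjusted p = 0.969). Without any cell that held a CUSTOM_GFP count, 36 genes were higher and 30 lower, and without the deepest 5% of cells 45 were higher and 43 lower. Free RNA in droplets can add counts to any cell, and its part in these results was not tested.

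The same division of the RFP+ libraries set 1758 cells with against 290 cells without epithelial counts. There 17 genes were higher (0.305%) and 23 lower (0.413%), together 0.718%. Shared with GFP+ were 12 genes called higher, which are 23.1% of the GFP+ list and 70.6% of the RFP+ list, and 16 called lower, which are 27.1% and 69.6%. Among them were Wfdc2, Ly6a, Ly6e, Spint2, St14, Krt14, Cxcl16 and Lgals3 on the higher side, and S100a4, Vim, Sparc, Spp1, Timp2, Tpm1 and Fth1 on the lower side. Of the genes called in GFP+, 49 of 52 and 51 of 59 had the same sign in RFP+. The share of like signs over all tested genes is not set beside these, so they are a description. Over 1931 genes of 100 CPM or more, GFP+ and RFP+ folds had a Pearson r of 0.40. The median log2 fold of the 52 was 1.16 in GFP+ and 0.67 in RFP+ libraries, and that of the 59 was -0.63 in GFP+ and -0.31 in RFP+. These genes were chosen by their GFP+ values, so the medians are no test of a smaller effect in RFP+.

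Tested as a difference between populations, the class effect differed for 1 of 5574 genes (0.0179%), the gene model Gm26924, with 291 genes at an unadjusted p under 0.05, and for 0 genes with DESeq2 (15 at an unadjusted p under 0.05). S100a4 had a log2 fold of -0.73 in both populations, Ly6a of 1.57 in GFP+ and 1.61 in RFP+, and Vim of -0.53 in GFP+ and -0.64 in RFP+. Fermt1, at 3.24 in GFP+ and 0.51 in RFP+, did not pass the test of the difference (edgeR adjusted p = 0.302). A p that misses the threshold does not show that the effects are alike, and the RFP+ cells without epithelial counts are few.

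**Figure D5:**
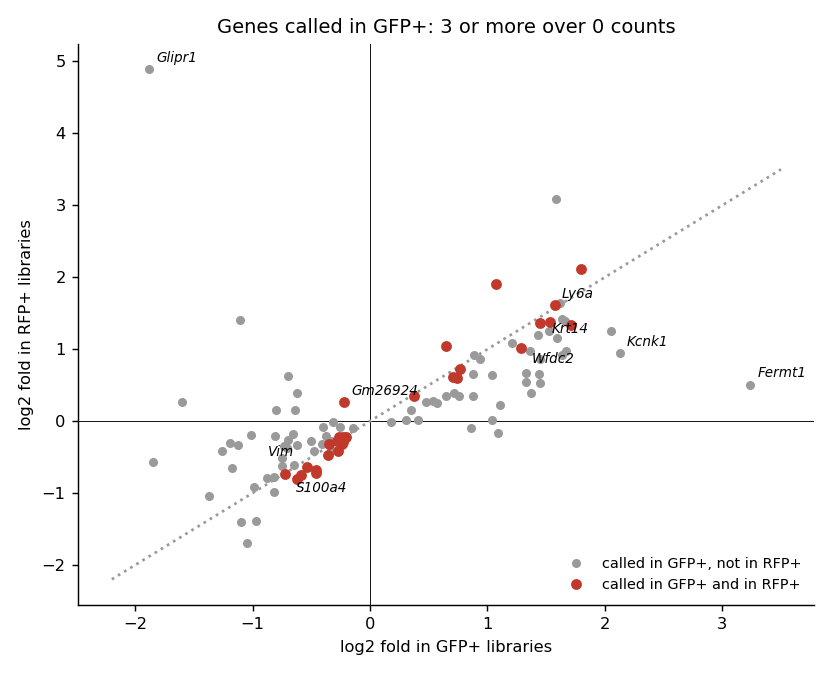
Log2 fold of cells with 3 or more over cells with 0 epithelial counts in RFP+ libraries (vertical) against the same in GFP+ libraries (horizontal) for the 111 genes called in GFP+. Red points were called in both populations and grey points in GFP+ and not in RFP+, and the dotted line marks equal folds; Fermt1 stands far right of it at 3.24 and 0.51, and Gm26924 lies above it with opposite signs.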

How the data were processed

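Gene by cell counts were deposited by the authors as raw whole numbers for 16647 gene rows and 7400 cells. The largest count of any gene in a cell was 342, and the lanes of each library were pooled in a single set of columns. Reads were set against GRCm38 according to the submitters' processing notes. No source used here names the aligner, the counter or the selection of cells. Cells with 1000 or more counts were classed by the summed counts of the 9 genes, and counts were summed per library and class. The 8 sums held 176782 to 1753228 counts. With the 9 genes left out, genes with a mean of at least 20 CPM over the 4 GFP+ sums and at least 20 counts were tested. The test was a quasi-likelihood F test of edgeR 4.0.16 under R 4.3.3, with TMM scaling and library as a block. Adjustment was by Benjamini-Hochberg, with a threshold of 0.05. CPM is scaled to each sum without the 9 genes, with 2 exceptions. Where the 9 genes are described without a test, it is scaled to all counts. Where the keratins or the adhesion genes alone made the classes, only the genes that made them are left out of the sum. The common biological coefficient of variation was 0.025, and the prior degrees of freedom were infinite in the median, so an SE (log2 fold divided by the root of F) is not a gene's own spread. Both classes come from the same library and are paired by it; GFP+ and RFP+ libraries are not paired with each other. DESeq2 1.42.0 was an alternative. Genes named are the 15 largest called folds of 100 CPM or more in each direction, the 4 largest of 50 CPM or more in each list and a fixed list; others are said to be chosen after their values were seen. The cells, genes and lists were chosen with earlier results of these data known. The fit was tested on simulated data. Each pair of libraries shared 2 cell barcodes.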

Additional observations from a re-analysis of the deposited data

Results flagged for a closer look

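The effect of the division differed between the populations for Gm26924, a gene model, by the test of the difference itself. It was at 4790.0 and 5390.2 CPM in GFP+ cells with epithelial counts, against 5790.9 and 5959.9 CPM in GFP+ cells without (log2 -0.22), while its log2 fold in RFP+ libraries was 0.26. The difference in log2 fold, GFP+ minus RFP+, was -0.48 (edgeR adjusted p = 2.96e-12). The call was lost with DESeq2, with classes matched on total counts and with classes from adhesion genes, where 0 genes differed by these tests (15 with DESeq2, and 272 and 326 with edgeR, at an unadjusted p under 0.05). In GFP+ alone its fall was lost without library 1 (log2 -0.16, edgeR adjusted p = 0.437).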

How the results depend on the processing

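In GFP+, the 52 higher and 59 lower genes became 5 and 4 with DESeq2's test, 24 and 19 at 1500 counts per cell, 33 and 24 matched on depth, 24 and 27 thinned with the original classes, and 18 and 18 thinned with new classes. The lower genes became 27 with classes from adhesion genes and 30 without CUSTOM_GFP cells. They became 16 and 13 without GFP+ library 1, 21 and 20 without GFP+ library 2, and 62 and 74 with RFP+ library 2 or 3 left out. In RFP+, the 17 higher and 23 lower genes became 2 and 4, 6 and 6, 9 and 10, 8 and 11, and 11 and 11 under the first 5 of these settings in turn, and 37 and 45 with classes from adhesion genes. The higher genes became 26 with 5 or more counts, and the lower genes 12 with 2 or more counts, 13 with no further filter, 15 with one population in the fit, and 14 without TMM. They became 15 and 14 with GFP+ library 1 or 2 left out, 6 and 10 without RFP+ library 2, and 7 and 10 without RFP+ library 3. Without the library block, which ends the pairing of the classes, GFP+ had 47 higher and 44 lower genes and RFP+ 14 and 13. The single difference between populations became 2 with 2 or more counts and 2 without the deepest 5% of cells. It became 0 with DESeq2 (15 at an unadjusted p under 0.05), matched on depth (272 with edgeR) and with classes from adhesion genes (326 with edgeR). The cause of these moves was not tested. Of genes not called, CUSTOM_GFP turned to a log2 fold of -0.022 with classes from adhesion genes. CUSTOM_RFP turned to -0.022 without GFP+ library 1, -0.058 with 5 or more counts, -0.0030 with classes from keratins and -0.056 with classes from adhesion genes. Cdh2 turned to 0.039 without GFP+ library 2 and 0.065 with classes from adhesion genes. No other named fold changed sign. List medians held their sign in all 22 settings for the epithelial junction (0.0067 to 0.61), epithelial surface (0.28 to 0.96) and mesenchymal (-0.38 to -0.16) lists. A held sign was not particular to these. The actin, chemokine, class I, glycolysis, p53 target, ribosome biogenesis and transition factor medians held theirs as well. The median of the epithelial transcription factor list turned in 10 settings, and those of the luminal secretory and G2/M lists in 1 each. Genes under 100 CPM rest on few counts a sum, which limits what could be called.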

Other observations

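Across 5312 tested genes with an annotated length, 95.3% of the total, the GFP+ log2 fold and transcript length had a Spearman rho of -0.12, and in RFP+ libraries it was -0.069; genes are not independent, and the points share the same sums. Over 1931 genes of 100 CPM or more, the log2 folds in GFP+ and RFP+ libraries had a Pearson r of 0.40, as a description of these libraries.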
